A study of Saccharomyces cerevisiae with 21 samples.

Results

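The isoform genes that act on pyruvate and acetaldehyde in budding yeast (Saccharomyces cerevisiae) were followed over strains, conditions and fractions, namely the pyruvate decarboxylase genes PDC1 (YLR044C), PDC5 (YLR134W) and PDC6 (YGR087C), the related decarboxylase gene ARO10 (YDR380W), and the alcohol dehydrogenase genes ADH1 (YOL086C), ADH2 (YMR303C), ADH3 (YMR083W), ADH4 (YGL256W), ADH5 (YBR145W) and ADH7 (YCR105W). They were taken by locus name as 10 of the 6600 features counted, and all 10 passed the filter on low counts in every fit. Poly(A) RNA was sequenced in 21 libraries, of which 12 are of whole cells and 9 of nuclear extracts. The study asked how RNA changes on glucose starvation in strains with altered Nab2, a nuclear protein that binds poly(A) RNA.

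All strains were BY4742 derivatives of mating type alpha that lack LEU2, LYS2 and URA3 and carry the his3 delta 1 allele, and each holds NAB2 fused to a fluorescent protein gene at its own locus, with a HISMX marker. Wild type has full-length NAB2 with yEGFP. The IDR deletion strain lacks the QQQP and RGG segments (residues 104 to 263) and has an SV40 nuclear localization signal before yEGFP. The F450A strain, an interface mutant, has the substitution F450A and GFP. Unstressed cells grew in synthetic complete medium holding 2% glucose to mid-log phase. Starved cells were then washed 3 times and kept for 24 h without glucose. Whole cell groups have n = 2 for each strain and condition. Nuclear extracts came from starved cells only, with 3 libraries for each strain. Whether the libraries of a group came from separate cultures is not stated, so each p-value reflects how far these libraries vary, and that variation may be technical.

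Pyruvate decarboxylase, which needs thiamine pyrophosphate, turns pyruvate into acetaldehyde and carbon dioxide, and alcohol dehydrogenase then reduces acetaldehyde to ethanol and so regenerates NAD+. PDC1 and ADH1 encode the main fermentative enzymes in glucose-grown yeast. ADH2 encodes the glucose-repressed enzyme that oxidises ethanol back to acetaldehyde, and its activators include Adr1 and Cat8. Aro10 acts on keto acids made from amino acids, in the Ehrlich pathway to fusel alcohols.

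The 10 genes held 0.82% to 1.59% of the counts of whole cell libraries, which had 4815254 to 14069868 counts, and 0.70% to 1.22% of those of 7 nuclear libraries with 6353585 to 23138938 counts. Nuclear wild type replicate 3 (1079 counts) and nuclear F450A strain replicate 3 (3981 counts) were left out of the main fits. LEU2, LYS2 and URA3 had at most 5 counts in any library. NAB2, the edited gene, stood at 49.8 to 380 CPM (counts scaled to library size) in whole cells and 119 to 431 CPM in the 7 nuclear libraries, and a count over the whole gene does not check the edits. Unstressed wild type replicate 1 stood apart from replicate 2, with a Spearman correlation over genes of 0.916, against 0.966 to 0.997 in the other whole cell pairs. For comparisons that use unstressed wild type, member calls that change without it are named beside the results. Some values that were not called changed sign without it, such as the PDC5 difference in response between IDR deletion strain and wild type (-0.06, then 0.20). The other whole cell comparisons left it out only in the fits of the compared groups alone. The nuclear labels were checked with 603 genes that were higher and 576 that were lower in one starved mutant than in the other in whole cells, on a scale where the starved whole cell F450A strain has a mean of 0 and the IDR deletion strain of 1. The nuclear libraries labelled IDR deletion strain scored 0.517, 0.429 and 1.11, those labelled F450A strain 1.06 and 0.70, and those labelled wild type 0.435 and 0.708. The nuclear libraries thus did not part by label on these genes. Starved whole cell wild type scored -0.101 and -0.082, so the score also differed between fractions. The check cannot tell crossed labels from a strain difference that is absent in nuclear RNA.

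The gene pairs are close enough in sequence that reads could be shared. ADH1 (chromosome XV, 159548 to 160594) and ADH2 (chromosome XIII, 873291 to 874337) have the same length of 1047 bases and differ at 117 of them (88.8% identity). Their longest identical run is 189 bases, and 14.0% of the 50-base windows of each gene have an exact copy in the other. PDC1 (chromosome XII, 232390 to 234081) and PDC5 (chromosome XII, 410723 to 412414) are 87.2% identical, and 0.974% of their 50-base windows are shared. PDC1 had 281 to 477 times the reads per kb of PDC5 in unstressed libraries. Reads from so small a shared part could therefore still weigh on PDC5, which was not tested. PDC6 (chromosome VII, 651290 to 652981) differs from PDC1 at 423 aligned bases, and no 50-base window of it, or of ARO10, ADH3, ADH4, ADH5 or ADH7, occurs elsewhere in the genome. The stretches of 60 bases that best tell the pairs apart are shown from R64, the assembly whose starts and ends for all 10 genes equal those of the count files, with the differing bases in capitals and both genes read 5′ to 3′ on the coding strand.
ADH1, bases 668 to 727 (chrXV:159868-159927, minus strand): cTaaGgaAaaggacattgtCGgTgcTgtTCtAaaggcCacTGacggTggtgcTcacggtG
ADH2, bases 668 to 727 (chrXIII:873611-873670, minus strand): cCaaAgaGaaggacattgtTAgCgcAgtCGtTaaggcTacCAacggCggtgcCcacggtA
PDC1, bases 559 to 618 (chrXII:233464-233523, minus strand): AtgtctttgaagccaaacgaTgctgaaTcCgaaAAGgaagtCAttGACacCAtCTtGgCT
PDC5, bases 559 to 618 (chrXII:411281-411340, plus strand): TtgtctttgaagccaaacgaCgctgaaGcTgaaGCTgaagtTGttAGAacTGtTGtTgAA

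PDC5, ADH2 and ARO10 rose with starvation in every strain. Upstream windows are shown for ADH2 and ARO10, the 2 of these that hold matches to the Adr1 or Aro80 motif, while the window of PDC5 holds neither. Each is a stretch of 300 bases that ends 100 bases before the start codon, and the capitals mark matches to known factor motifs searched on both strands. In ADH2 the capitals are an inverted pair of the Adr1 motif TTGGNG, which occurs in 35.6% of the 5916 windows of the same length before protein-coding genes. ADH2 was the sole gene of the 10 with more than 1 match to it, and the share of windows with more than 1 match was not computed. PDC6, ADH1 and ADH7 also held 1 match each. In ARO10 the capitals are 1 match to that motif and 4 matches to the motif of Aro80, the activator of aromatic amino acid breakdown (CCG, 7 bases of any kind, CCG). The Aro80 motif was found in 3.97% of windows and in no other of the 10 genes, and 3 of its 4 matches overlap end to end. The motif of Cat8 and Sip4 (CC, any base, T, 4 bases of any kind, CCG, in 5.07% of windows) and that of Zap1 (ACCTT, any base, AAGGT, in 0.0845%) had no match in the 10 windows, and ADH1 had 4 matches to the Gcr1 motif CTTCC (46.3%). PDC1, PDC5, ADH1, ADH5 and ADH7 each had 1 match to the Msn2 and Msn4 motif CCCCT (23.9%), and that in ADH1 overlaps a match to the Mig1 motif CCCCNC (15.9%). A match is a description of the sequence and shows no binding.
ADH2 upstream (chrXIII:874438-874737, minus strand): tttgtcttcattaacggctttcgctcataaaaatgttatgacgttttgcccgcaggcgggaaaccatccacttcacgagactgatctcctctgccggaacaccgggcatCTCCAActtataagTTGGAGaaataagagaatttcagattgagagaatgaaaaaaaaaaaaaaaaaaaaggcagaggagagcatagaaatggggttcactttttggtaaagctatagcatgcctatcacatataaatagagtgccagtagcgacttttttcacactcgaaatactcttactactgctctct
ARO10 upstream (chrIV:1233818-1234117, plus strand): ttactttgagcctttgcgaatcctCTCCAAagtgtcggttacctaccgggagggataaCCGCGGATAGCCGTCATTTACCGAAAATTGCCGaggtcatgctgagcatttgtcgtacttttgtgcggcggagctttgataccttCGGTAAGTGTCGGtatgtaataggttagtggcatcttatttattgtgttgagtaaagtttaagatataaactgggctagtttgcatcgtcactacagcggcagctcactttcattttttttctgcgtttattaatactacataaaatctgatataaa

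Levels are in RPKM, reads scaled to gene length and to library size by TMM, so they can be compared between genes. Changes are on the log2 scale with the SE of edgeR's quasi-likelihood fit. The words rose and fell are kept for genes whose p, adjusted over all genes tested by Benjamini-Hochberg, was under 0.05. They are relative to all poly(A) RNA counted, so a change in RNA per cell is not seen.

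**Figure D1:**
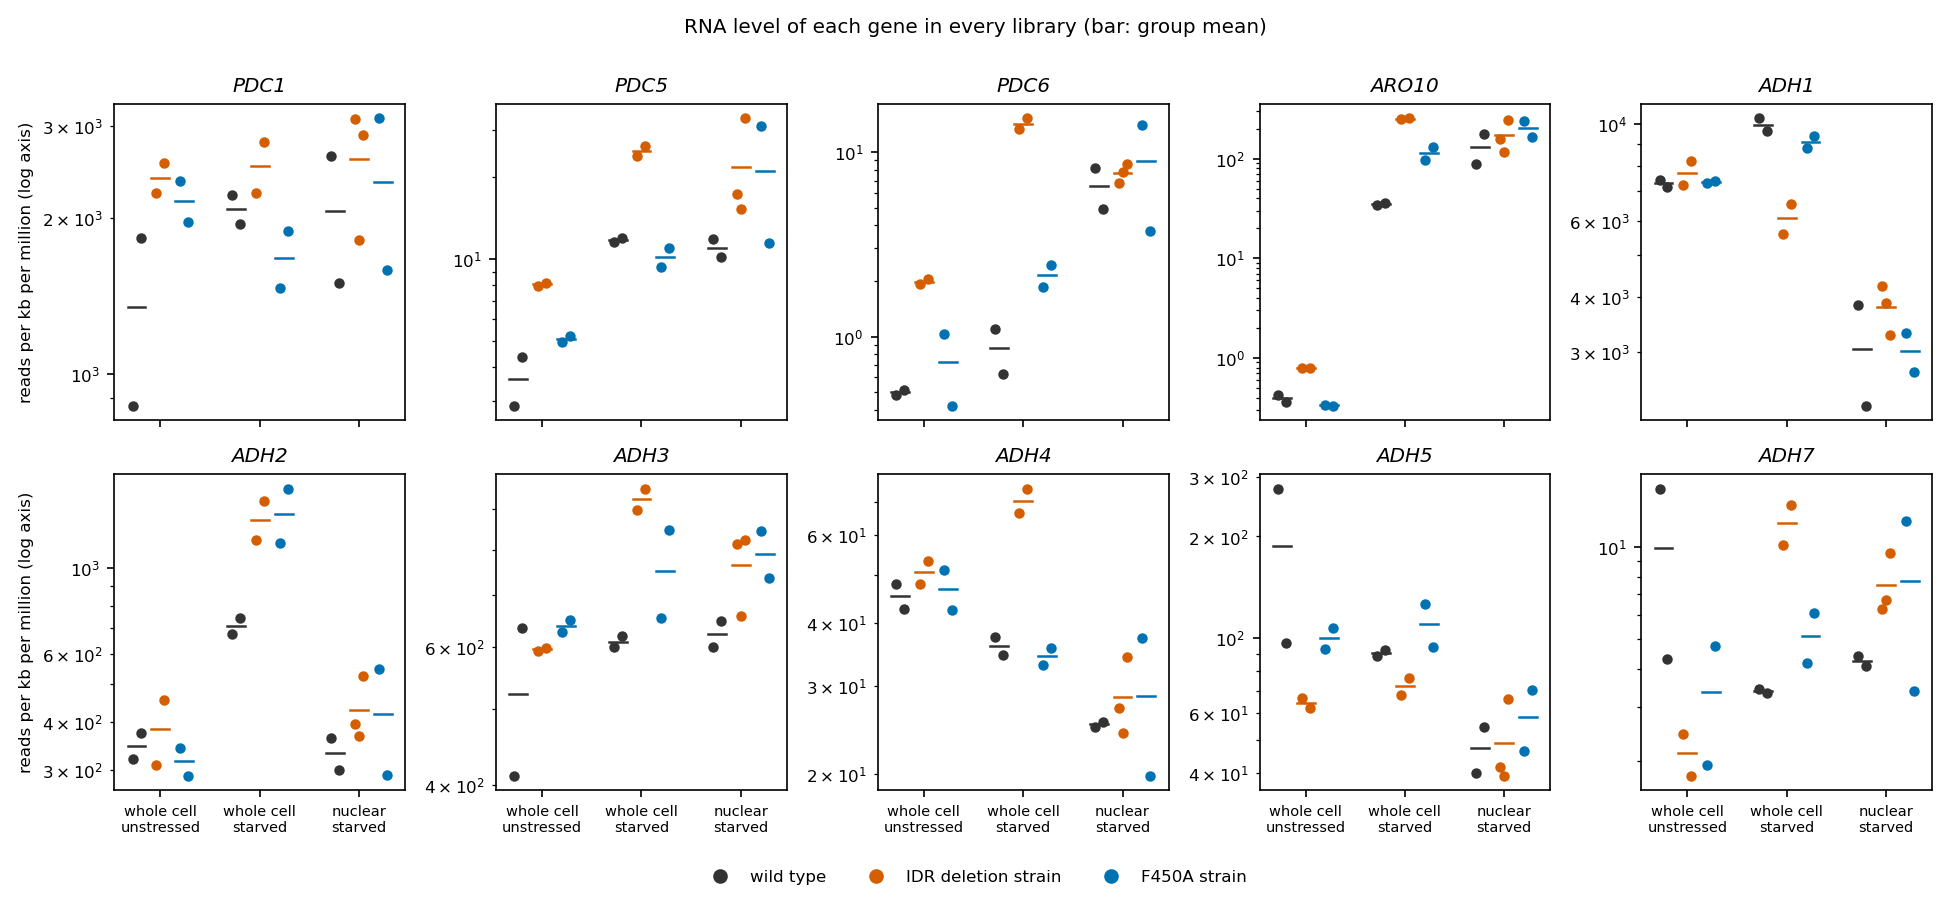
RNA level of each gene in every library with enough depth (RPKM, log axis), with points for libraries, bars for group means and colours for strains. ARO10 lies between 0.333 and 0.799 in unstressed whole cells and between 33.8 and 253 in starved ones, and unstressed wild type replicate 1 stands apart for PDC1, ADH5 and ADH7.

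PDC1 supplied nearly all pyruvate decarboxylase RNA in every group. It made up 98.4% to 99.8% of the reads per kb of PDC1, PDC5 and PDC6 together in all 19 libraries with enough depth. Its level was 871 and 1829 RPKM in unstressed wild type and 2216 and 1948 after starvation. It stood at 2235 and 2545 in the unstressed and 2228 and 2796 in the starved IDR deletion strain, and at 2354 and 1960 in the unstressed and 1465 and 1883 in the starved F450A strain. Unstressed wild type replicate 1 was lowest, and the other whole cell libraries lay between 1465 and 2796. PDC1 was called in none of the 18 comparisons in the main fits, and in 1 with a replicate block (nuclear against whole cell in the F450A strain, 0.94, adjusted p = 0.025). With only the groups compared it was called in the starved IDR deletion strain against wild type (0.28, adjusted p = 0.0282). Before starvation it stood at 0.83 in that strain against wild type, at 0.38 without unstressed wild type replicate 1 and at 1.46 without replicate 2. Its starvation change was 0.64 ± 0.31 in wild type (adjusted p = 0.0951), with 0.20 ± 0.19 without unstressed replicate 1 and 1.27 ± 0.21 without unstressed replicate 2, where it was called (adjusted p = 0.000231).

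PDC5, a minor isoform known to be induced when PDC1 is lost or thiamine is short, rose with starvation in every strain. Its level went from 2.89 and 4.36 RPKM to 11.6 and 11.96 in wild type. In the IDR deletion strain it went from 7.94 and 8.20 to 23.9 and 26.1, and in the F450A strain from 4.94 and 5.21 to 9.37 and 10.97. The unstressed and starved libraries of each strain did not overlap, and the starved IDR deletion strain was highest. The rises were 1.71 ± 0.21 (adjusted p = 0.000104), 1.65 ± 0.20 (adjusted p = 6.82e-05) and 1.01 ± 0.20 (adjusted p = 0.00217) in wild type, IDR deletion strain and F450A strain. PDC5 was higher in the starved IDR deletion strain than in starved wild type (1.09 ± 0.20, adjusted p = 0.00391) and than in the starved F450A strain (1.30 ± 0.20, adjusted p = 0.00351). It was also higher before starvation, against wild type (1.15 ± 0.21, adjusted p = 0.0297), a call lost without either unstressed IDR deletion strain library and with only these 2 groups fitted (adjusted p = 0.441), and kept without unstressed wild type replicate 1 (0.88 ± 0.18, adjusted p = 0.0372). The difference between the rise in the IDR deletion strain and that in wild type was -0.06 ± 0.28 (adjusted p = 0.905). How far reads shared with PDC1 enter these PDC5 levels cannot be told.

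PDC6, the minor isoform known for induction under sulphur limitation, was high in the starved IDR deletion strain. Its level was 0.482 and 0.513 RPKM in unstressed and 1.10 and 0.629 in starved wild type, on 5 to 10 counts per library. It went from 1.92 and 2.05 to 13.3 and 15.2 in the IDR deletion strain, and from 1.03 and 0.423 to 1.86 and 2.45 in the F450A strain. The 2 starved IDR deletion strain libraries lay above every other whole cell library. PDC6 rose in the IDR deletion strain (2.85 ± 0.32, adjusted p = 4.38e-05) and the F450A strain (1.59 ± 0.40, adjusted p = 0.0069), and stood at 0.82 ± 0.51 in wild type (adjusted p = 0.179). Without starved F450A strain replicate 2 the call in that strain was lost, with an adjusted p of 0.053. In starved cells PDC6 was 16.2-fold higher in the IDR deletion strain than in wild type (4.01 ± 0.39, adjusted p = 0.000299) and 6.63-fold higher than in the F450A strain (2.73 ± 0.34, adjusted p = 0.00183). The test of whether its starvation response differed between IDR deletion strain and wild type gave 2.03 ± 0.60 (adjusted p = 0.0568). Before starvation it was higher in the IDR deletion strain than in wild type (1.98 ± 0.40, adjusted p = 0.0466), on 9 to 41 counts per library. That call was lost without unstressed wild type replicate 1 (1.93 ± 0.51, adjusted p = 0.0885), without either unstressed IDR deletion strain library, with the replicate number as a block (adjusted p = 0.0665) and with only these 2 groups fitted (adjusted p = 0.441).

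ARO10 had the largest starvation change of the 10 genes in each strain. It stood at 0.427 and 0.364 RPKM in wild type before starvation, 0.799 and 0.798 in the unstressed IDR deletion strain and 0.337 and 0.333 in the unstressed F450A strain, which is 7 to 18 counts per library. After starvation it stood at 33.8 and 35.8 in wild type, 247 and 253 in the IDR deletion strain and 96.6 and 130 in the F450A strain. The groups were ordered without overlap in starved cells, with the IDR deletion strain highest and wild type lowest. The rises were 87.2-fold in wild type (6.45 ± 0.23, adjusted p = 1e-07), 313-fold in the IDR deletion strain (8.29 ± 0.22, adjusted p = 3.29e-08) and 332-fold in the F450A strain (8.38 ± 0.24, adjusted p = 3.25e-08). In starved cells ARO10 was higher than wild type by 2.85 ± 0.17 in the IDR deletion strain (adjusted p = 7.07e-05) and by 1.70 ± 0.16 in the F450A strain (adjusted p = 0.0046). It was higher in the IDR deletion strain than in the F450A strain by 1.15 ± 0.16 (adjusted p = 0.00241). The call in the F450A strain was lost without either starved wild type library. The rise was steeper in the IDR deletion strain than in wild type by 1.84 ± 0.33 (adjusted p = 0.0108), a call lost in 5 of the 8 fits that leave out 1 library. The like difference in the F450A strain was 1.93 ± 0.35 (adjusted p = 0.10), and DESeq2 called it with an adjusted p of 0.0376. Per kb, ARO10 RNA was 0.0639 to 0.148 times that of PDC5 in unstressed cells, 2.92 and 3.00 times in starved wild type, and 9.69 to 11.8 times in the starved mutants.

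ADH1 made up 86.1% to 87.6% of the reads per kb of the 6 ADH genes in unstressed cells. Its level went from 7442 and 7148 RPKM to 10289 and 9617 in wild type, from 7225 and 8195 to 5593 and 6547 in the IDR deletion strain, and from 7326 and 7381 to 8795 and 9370 in the F450A strain. Wild type and F450A strain libraries were higher after starvation, while those of the IDR deletion strain were lower. ADH1 rose in wild type (0.46 ± 0.15, adjusted p = 0.0185) and stood at -0.33 ± 0.14 in the IDR deletion strain (adjusted p = 0.0688) and 0.31 ± 0.14 in the F450A strain (adjusted p = 0.0877, and 0.00634 by DESeq2). The difference between IDR deletion strain and wild type in this response was -0.79 ± 0.21 (adjusted p = 0.039). With only the groups compared, neither this difference (adjusted p = 0.108) nor the rise in wild type (adjusted p = 0.231) was called. In starved cells ADH1 was 1.64-fold lower in the IDR deletion strain than in wild type (-0.71 ± 0.15, adjusted p = 0.0064). It was 1.49-fold lower than in the F450A strain (-0.58 ± 0.15, adjusted p = 0.0239). The rise in wild type was not called without either starved wild type library, nor the difference from wild type in starved cells without replicate 1 of either group, nor the comparison with the F450A strain without any 1 of its 4 libraries.

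ADH2 rose with starvation in every strain. Its counts may include reads from stretches identical in the far more abundant ADH1, and by how much cannot be told. Its level went from 320 and 374 RPKM to 674 and 743 in wild type, from 309 and 456 to 1181 and 1489 in the IDR deletion strain, and from 343 and 290 to 1159 and 1608 in the F450A strain. Starved and unstressed libraries did not overlap in any strain, and all 4 starved mutant libraries lay above starved wild type. The rises were 1.04 ± 0.24 in wild type (adjusted p = 0.00348), 1.82 ± 0.24 in the IDR deletion strain (adjusted p = 0.000122) and 2.14 ± 0.24 in the F450A strain (adjusted p = 6.03e-05). In starved cells ADH2 was higher in the IDR deletion strain than in wild type (0.92 ± 0.23, adjusted p = 0.0174), a call lost without any 1 of 3 of the 4 libraries compared. In the F450A strain it stood at 0.96 ± 0.23 against wild type (adjusted p = 0.135), which DESeq2 called with an adjusted p of 0.00604. Even after starvation ADH1 had 12.9 to 15.3 times the reads per kb of ADH2 in wild type, 5.83 and 7.59 times in the F450A strain and 4.40 and 4.74 times in the IDR deletion strain, against 18.0 to 25.4 times in unstressed libraries.

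ADH3 encodes the mitochondrial enzyme. It stood at 412 and 635 RPKM in unstressed and 600 and 620 in starved wild type, 594 and 599 then 898 and 957 in the IDR deletion strain, and 629 and 651 then 654 and 847 in the F450A strain. It rose in the IDR deletion strain (0.65 ± 0.21, adjusted p = 0.0185), a call lost without any 1 of the 4 libraries, and changes in wild type (0.23 ± 0.20, adjusted p = 0.331, and -0.05 ± 0.14 without unstressed replicate 1) and F450A strain (0.24 ± 0.20, adjusted p = 0.332) were not called. In starved cells ADH3 stood at 0.61 ± 0.21 in the IDR deletion strain against wild type (adjusted p = 0.0522). DESeq2 called this comparison (adjusted p = 0.0157). The fit of only these groups called it as well (adjusted p = 4.59e-06), and 62.8% of all genes. ADH4, whose RNA is known to rise when zinc is short, stood at 48.0 and 42.8 RPKM in unstressed wild type, 48.0 and 53.3 in the IDR deletion strain and 51.2 and 42.6 in the F450A strain. After starvation it stood at 37.5 and 34.7, 66.4 and 74.4, and 33.1 and 35.8. The starved IDR deletion strain alone lay above the unstressed libraries. ADH4 rose in the IDR deletion strain (0.49 ± 0.15, adjusted p = 0.0165), a call lost without unstressed replicate 1 or starved replicate 2 of that strain, and fell in the F450A strain (-0.44 ± 0.15, adjusted p = 0.0317), where RLE scaling, DESeq2 and 3 of the 4 fits with 1 library left out made no call. It was 1.96-fold higher in the starved IDR deletion strain than in starved wild type (0.97 ± 0.15, adjusted p = 0.00206) and 2.05-fold higher than in the F450A strain (1.04 ± 0.15, adjusted p = 0.00303). Its response differed between IDR deletion strain and wild type by 0.81 ± 0.21 (adjusted p = 0.043). The fit with the replicate number as a block did not call this (adjusted p = 0.0591). Nor did the fit of only the groups compared (adjusted p = 0.0856).

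The wild type values of ADH5 and ADH7, the first a minor isoform and the second of a cinnamyl alcohol dehydrogenase type, depended on unstressed wild type replicate 1. ADH5 stood at 277 and 96.9 RPKM in unstressed and 88.65 and 92.4 in starved wild type, and at 62.3 to 126 in the other whole cell libraries. Its fall in wild type (-1.03 ± 0.39, adjusted p = 0.0397) was -0.09 ± 0.18 without that library (adjusted p = 0.671). ADH7 stood at 15.5 and 4.32 RPKM in unstressed and 3.43 and 3.33 in starved wild type, and went from 2.46 and 1.79 to 10.2 and 13.7 in the IDR deletion strain. It stood at 1.94 and 4.76 in the unstressed and 4.19 and 6.08 in the starved F450A strain. ADH7 rose in the IDR deletion strain (2.50 ± 0.63, adjusted p = 0.00604). The response differed from that of wild type by 4.03 ± 0.89 (adjusted p = 0.0218). The fit of only the groups compared did not call this difference (adjusted p = 0.0503). Without unstressed wild type replicate 1 this difference was 2.84 ± 0.64 (adjusted p = 0.0109). In starved cells ADH7 stood at 1.82 ± 0.65 in the IDR deletion strain against wild type (adjusted p = 0.064). DESeq2 called this comparison (adjusted p = 0.0151). The fit of only these groups called it as well (1.81, adjusted p = 2.57e-05), and 62.8% of all genes. The differences in response of ADH1, ADH4 and ADH7 between this strain and wild type were each lost without any 1 of 6 of the 8 libraries, those other than unstressed wild type. Without unstressed wild type replicate 1 the rises of PDC5 (1.44 ± 0.18), ARO10 (6.56 ± 0.29), ADH1 (0.49 ± 0.14) and ADH2 (0.93 ± 0.26) in wild type were still called, and the difference in response of ADH3 was called as well (0.70 ± 0.18, adjusted p = 0.0173).

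In all, starvation called 5 of the 10 genes in wild type (4 rose, 1 fell), 7 in the IDR deletion strain (all rose) and 5 in the F450A strain (4 rose, 1 fell). Over all genes tested 66.2%, 67.3% and 60% were called, so these shares lie near the background. The median change of the 10 genes was 0.55, 1.15 and 0.46 on the log2 scale, against -0.05 over all genes in each strain. In starved cells the IDR deletion strain and wild type differed in 6 genes (5 higher in the mutant, 1 lower) where 29.2% of all genes were called. The IDR deletion and F450A strains differed in 5 (4 higher in the IDR deletion strain, 1 lower) against 20.2% of all genes, and F450A strain and wild type in ARO10 alone against 0.478%. Before starvation PDC5 and PDC6 were called between IDR deletion strain and wild type, against 1.67% of all genes. No member was called before starvation between the IDR deletion and F450A strains (0.188% of all genes) by edgeR, although 3 had an unadjusted p under 0.05 and DESeq2 called PDC6. Between unstressed F450A strain and wild type edgeR called 0 members and 0% of genes, with 3 members and 1422 genes at an unadjusted p under 0.05, and DESeq2 called 0 members. The starvation response differed between IDR deletion strain and wild type in ARO10, ADH1, ADH4 and ADH7, against 11.7% of all genes. In the F450A strain edgeR called 0 members and 0.0171% of genes, with 5 members at an unadjusted p under 0.05, and DESeq2 called ARO10.

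**Figure D2:**
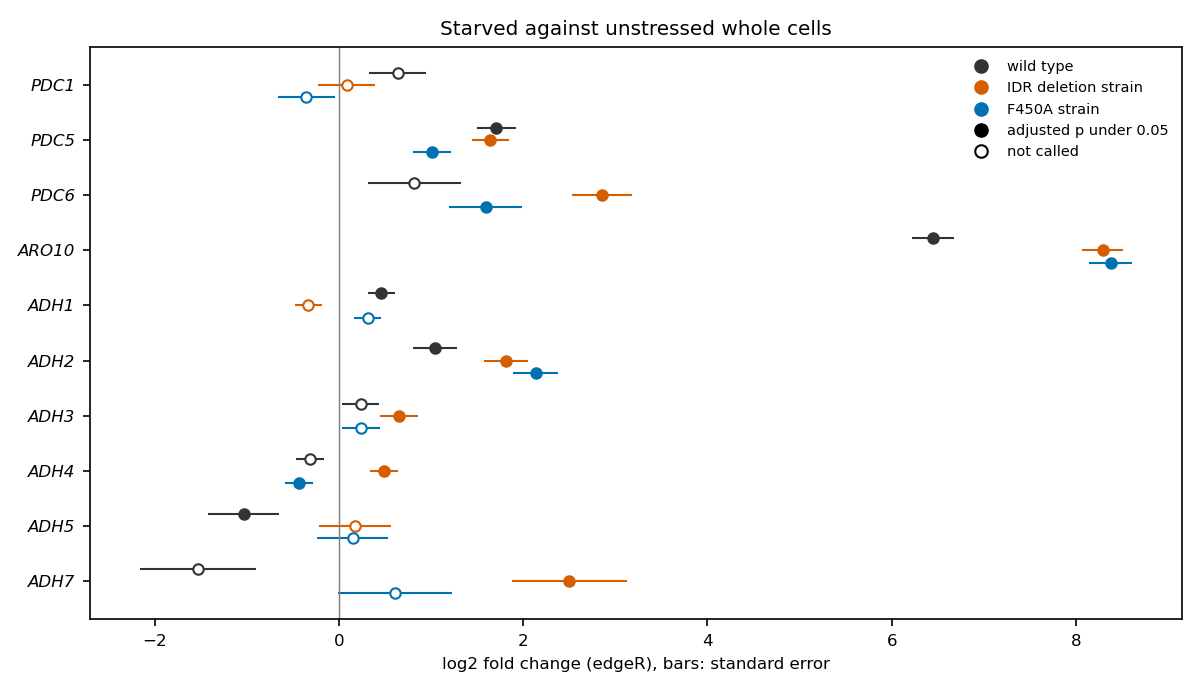
Starvation change of each gene in whole cells (log2 fold change with SE bars), with colours for strains and filled points where the adjusted p was under 0.05. ARO10 lies at 6.45, 8.29 and 8.38, while PDC1 lies at 0.64, 0.09 and -0.36 and is filled in no strain.

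**Figure D3:**
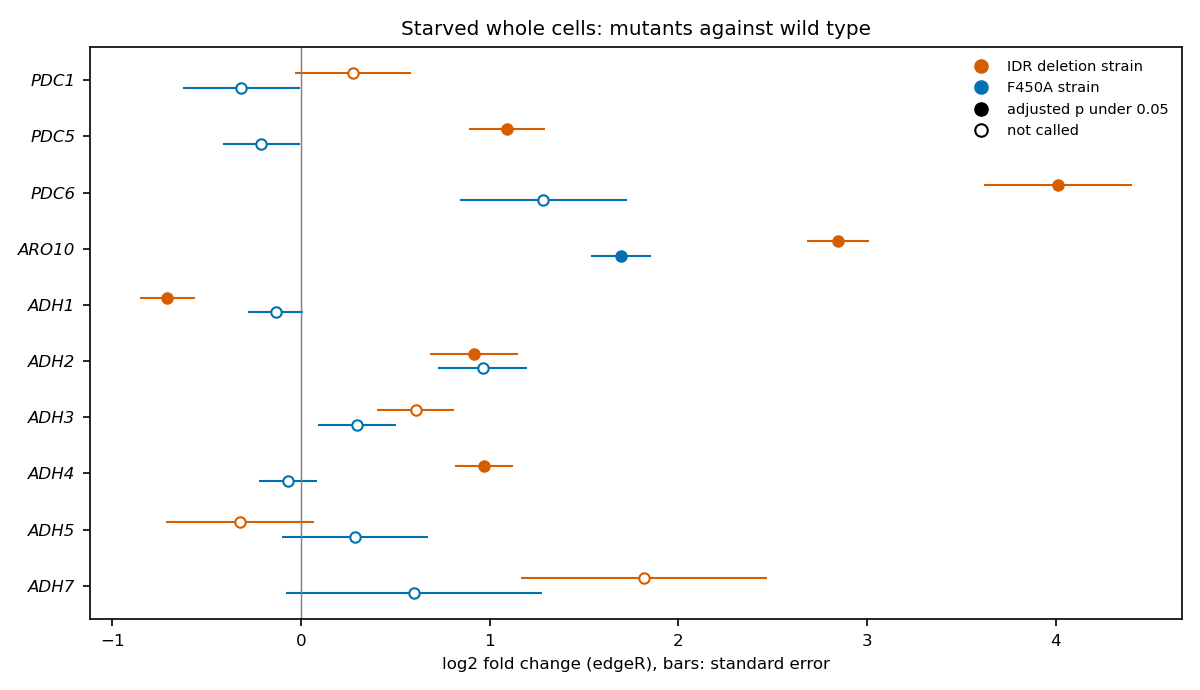
Difference of each mutant from wild type in starved whole cells (log2 fold change with SE bars, filled where the adjusted p was under 0.05). PDC6 (4.01) and ARO10 (2.85) lie farthest right in the IDR deletion strain and ADH1 (-0.71) lies to the left, while ARO10 (1.70) is the one filled point of the F450A strain.

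The balance between isoforms was tested as log2 ratios of reads per kb, with 2-sided exact permutation tests that exchange libraries within a strain and Benjamini-Hochberg adjustment over 8 tests. The ratio of ADH2 to ADH1 rose with starvation by 1.52 averaged over strains (2.87-fold, exact p = 0.00926, the smallest the design allows, adjusted p = 0.0247). Each strain moved upward, by 0.59 in wild type, 2.17 in the IDR deletion strain and 1.81 in the F450A strain. The ratio of PDC5 to PDC1 rose by 1.31 (2.48-fold, exact p = 0.00926, adjusted p = 0.0247), with 1.01, 1.56 and 1.37 in the same order. The ratio of PDC6 to PDC1 stood at 1.62 (exact permutation p = 0.0278, adjusted p = 0.0556), with 0.05 in wild type, 2.77 in the IDR deletion strain and 2.04 in the F450A strain. Without unstressed wild type replicate 1 it was 1.78 with an adjusted p of 0.037 by the same exact test. The summed ADH genes against the summed PDC genes stood at 0.12 (exact permutation p = 0.667, adjusted p = 0.762), with -0.28, -0.14 and 0.79 in wild type, IDR deletion strain and F450A strain. Without unstressed wild type replicate 1 the wild type value turned to 0.27 and the mean was 0.31 (exact permutation p = 0.111, adjusted p = 0.163). The first 2 ratios kept their calls without that library, at 1.47 and 1.39, with 0.44 and 1.25 in wild type. As shares, ADH2 made up 3.43% to 4.87% of ADH reads per kb in unstressed cells and 5.77% and 6.69% in starved wild type. It made up 10.8% and 13.4% in the starved F450A strain and 15.1% and 16.3% in the starved IDR deletion strain. Reads shared by ADH1 and ADH2, or by PDC1 and PDC5, could enter these ratios and shares, by an amount that cannot be told.

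**Figure D4:**
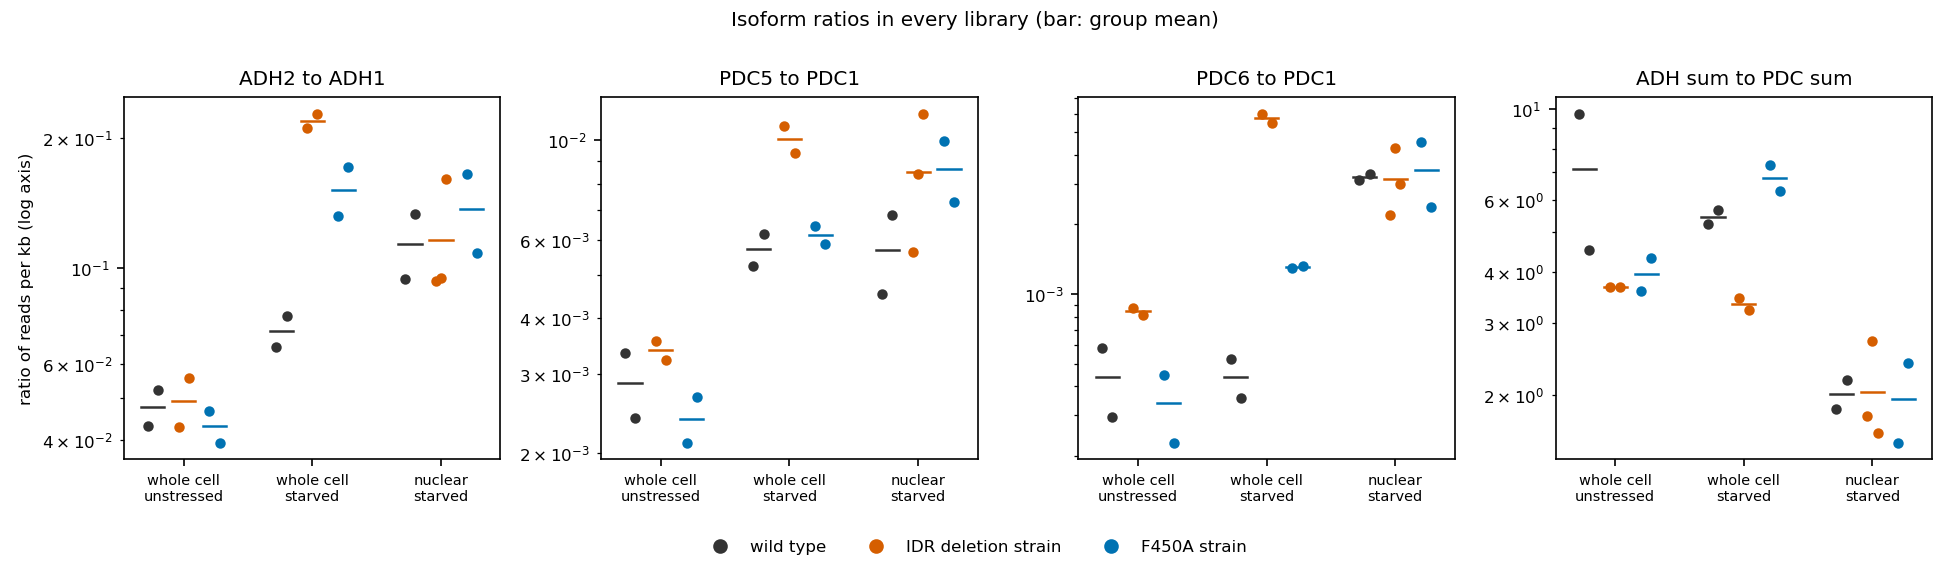
Ratios of reads per kb between isoforms in every library with enough depth (log axis), with points for libraries, bars for group means and colours for strains. ADH2 to ADH1 lies between 0.0394 and 0.0557 in unstressed cells and between 0.0655 and 0.228 in starved whole cells, and the summed ADH to summed PDC ratio is lowest in nuclear extracts (1.52 to 2.71).

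In nuclear extracts no member was called between a mutant and wild type, in fits that called few or no genes at all. edgeR called 0 of the 10 genes and 0% of all genes for both mutants, with 0 members and 258 and 177 genes at an unadjusted p under 0.05, and DESeq2 called 0 members and 12 and 14 genes. For 4 of the 10 genes all 3 libraries labelled IDR deletion strain lay above both labelled wild type. The like share over all genes was not computed, so no difference is read from this count. PDC5 stood at 15.2 to 33.0 RPKM against 10.2 and 11.9 (1.04 ± 0.49, adjusted p = 0.848), and ADH7 at 6.27 to 9.52 against 4.09 and 4.41 (0.86 ± 0.51, adjusted p = 0.848). ADH2 stood at 369 to 525 against 301 and 363 (0.43 ± 0.35, adjusted p = 0.861), and ADH3 at 657 to 824 against 601 and 648 (0.34 ± 0.27, adjusted p = 0.861). In the F450A strain this held for ADH3 alone (735 and 845). ARO10 stood at 88.8 and 175 RPKM in the nuclear libraries labelled wild type, 156, 117 and 245 in those labelled IDR deletion strain and 236 and 166 in those labelled F450A strain. PDC6 stood at 8.19 and 4.92, at 6.80, 7.75 and 8.58, and at 14.1 and 3.715 RPKM in the same order. For ARO10 and PDC6 the groups overlapped, and for PDC6 the pair labelled F450A strain held both the highest and the lowest value. With the labels as given, the differences of ARO10 from wild type were 0.44 ± 0.43 in the IDR deletion strain (adjusted p = 0.895) and 0.66 ± 0.46 in the F450A strain (adjusted p = 0.962).

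Against starved whole cells, nuclear extracts held less ADH2 RNA in every strain. Less ADH1 RNA and more PDC6 RNA were called in wild type and the F450A strain. The ADH2 counts may include reads shared with ADH1. Per the labels' protocols nuclear RNA was extracted by another procedure, and its count files also list 6 spike-in features, so fraction and preparation cannot be told apart. ADH1 stood at 3845 and 2259 RPKM in nuclear wild type, 4244, 3885 and 3271 in the libraries labelled IDR deletion strain and 3314 and 2702 in those labelled F450A strain, below every starved whole cell library. It was 3.25-fold lower than in whole cells in wild type (-1.70 ± 0.31, adjusted p = 0.0034) and 2.99-fold lower in the F450A strain (-1.58 ± 0.31, adjusted p = 0.0042), and stood at -0.67 ± 0.27 in the IDR deletion strain (adjusted p = 0.125). ADH2, at 292 to 548 RPKM in nuclear libraries, was lower in wild type (-1.09 ± 0.32, adjusted p = 0.0248), IDR deletion strain (-1.63 ± 0.28, adjusted p = 0.0124) and F450A strain (-1.70 ± 0.32, adjusted p = 0.00396). The call in wild type was lost with the replicate block (adjusted p = 0.056) and without any 1 library. ADH5 was lower in wild type (-0.94 ± 0.29, adjusted p = 0.0311) and F450A strain (-0.91 ± 0.29, adjusted p = 0.0317), and ADH4 in the IDR deletion strain (-1.30 ± 0.23, adjusted p = 0.0128). The calls of ADH5 were lost without any 1 library in wild type and without replicate 1 of either fraction in the F450A strain, and those of ADH2 and ADH4 in the IDR deletion strain without either whole cell library or nuclear replicate 1.

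PDC6 was higher in nuclear than in whole cell RNA in wild type (2.93 ± 0.63, adjusted p = 0.00723) and F450A strain (2.09 ± 0.53, adjusted p = 0.0121), and stood at -0.89 ± 0.42 in the IDR deletion strain (adjusted p = 0.183). The call in wild type was lost without starved whole cell replicate 2. That in the F450A strain was lost without whole cell replicate 1 and without the nuclear library labelled replicate 1, where the value was 0.78. ARO10 was higher in wild type (1.93 ± 0.39, adjusted p = 0.00544), a call lost without whole cell replicate 1 or nuclear replicate 2, with 0.85 ± 0.37 in the F450A strain (adjusted p = 0.0989) and -0.53 ± 0.34 in the IDR deletion strain (adjusted p = 0.32). The nuclear against whole cell difference was lower in the IDR deletion strain than in wild type for PDC6 (-3.81 ± 0.76, adjusted p = 0.0431) and ARO10 (-2.45 ± 0.51, adjusted p = 0.0458). Both calls were lost in 7 of the 9 fits that leave out 1 library. They rest on nuclear labels that the check genes did not follow. Between these strains the whole cell difference was 4.01 for PDC6 and 2.85 for ARO10, against 0.26 and 0.44 in nuclear extracts. Starved wild type whole cells held 10 and 5 counts of PDC6. Counts of called members were 5 in wild type, 2 in the IDR deletion strain and 4 in the F450A strain, against 31%, 9.61% and 34.3% of all genes. For the difference of the fraction contrast they were 2 for the IDR deletion strain against 1.4% of all genes. For the F450A strain edgeR called 0 members and 0% of genes, with 0 members and 177 genes at an unadjusted p under 0.05, and DESeq2 called 0 members. With the replicate block, nuclear against whole cell called PDC1 (0.94, adjusted p = 0.025) and PDC5 (1.36, adjusted p = 0.00954) in the F450A strain and ADH5 (-1.01, adjusted p = 0.0293) in the IDR deletion strain as well. The block also called the difference between IDR deletion strain and wild type in this contrast for ADH1 (1.17, adjusted p = 0.0426) and ADH4 (-0.93, adjusted p = 0.0497). The summed ADH to summed PDC ratio was lower in nuclear extracts by 1.34 (2.54-fold lower, exact p = 0.00556, the smallest the design allows, adjusted p = 0.0247), and fell in all 3 strains. The other ratios were not called, with -0.16 for ADH2 to ADH1 (exact permutation p = 0.556), 0.05 for PDC5 to PDC1 (exact permutation p = 0.806) and 1.10 for PDC6 to PDC1 (exact permutation p = 0.122). The strains went opposite ways in these means. ADH2 to ADH1 stood at 0.65 in wild type, -0.96 in the IDR deletion strain and -0.17 in the F450A strain. PDC6 to PDC1 stood at 2.90, -0.91 and 1.32 in the same order, and PDC5 to PDC1 at -0.03, -0.30 and 0.47.

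**Figure D5:**
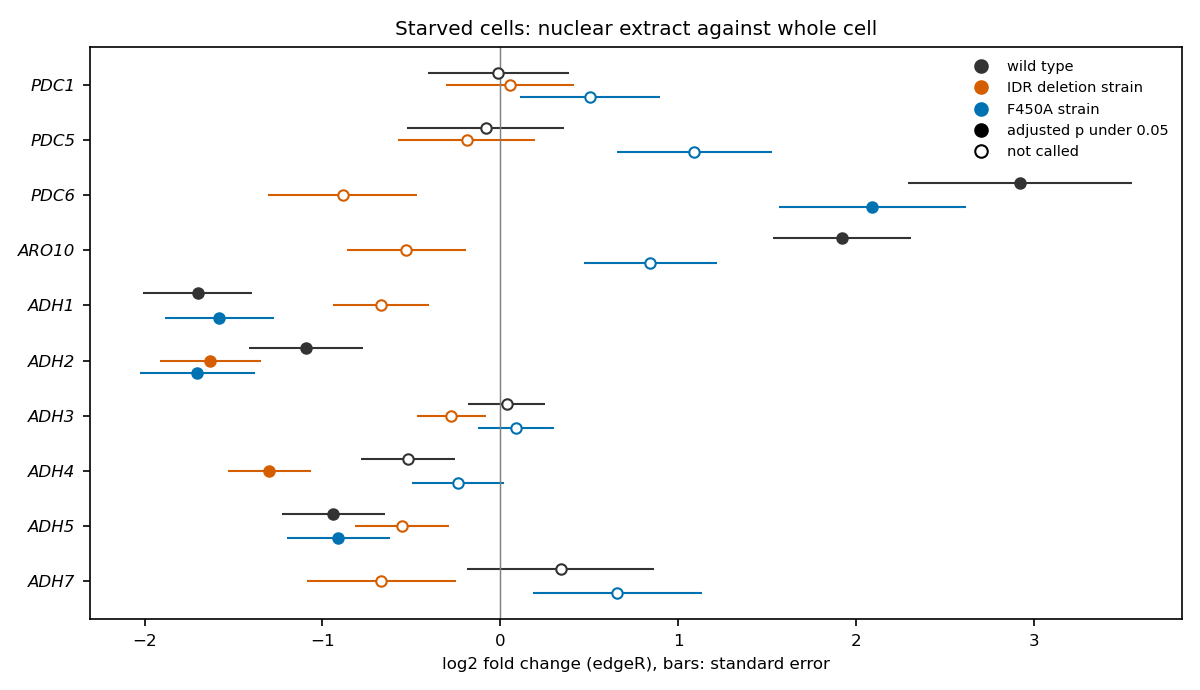
Nuclear extract against whole cell in starved cells for each gene (log2 fold change with SE bars, filled where the adjusted p was under 0.05), with colours for strains as labelled. ADH1 and ADH2 lie left of 0 in every strain, and PDC6 lies at 2.93 in wild type, 2.09 in the F450A strain and -0.89 in the IDR deletion strain.

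Genes around these enzymes gave the following counts with starvation. Of 7 genes of acetaldehyde and acetate use, 6 rose and 1 fell in wild type (median 2.66), 5 rose and 1 fell in the IDR deletion strain (median 3.47), and 6 rose and 1 fell in the F450A strain (median 2.76). Over all genes 31.7%, 33% and 29.7% rose and 34.5%, 34.3% and 30.3% fell in the same order, which is the background for every list below. The mitochondrial aldehyde dehydrogenase gene ALD4 rose by 4.49 ± 0.31 in wild type and the glucose-repressed acetyl-CoA synthetase gene ACS1 by 3.63 ± 0.27, while ALD5, the 1 gene that fell, stood at -0.45 ± 0.13 (named after its value was seen). In starved cells 5 of these 7 genes were higher and 2 lower in the IDR deletion strain than in wild type, where 15.9% of all genes were higher and 13.3% lower, with ACS1 at 2.36 ± 0.25 and its counterpart ACS2, named after its value was seen, at -0.95 ± 0.16. Of 10 genes of pyruvate supply and other pyruvate use, 6 rose and 0 fell in wild type (median 1.10), 5 rose and 1 fell in the IDR deletion strain (median 0.82), and 6 rose and 0 fell in the F450A strain (median 1.01). The glucose-repressed pyruvate kinase gene PYK2 rose by 1.97 ± 0.20 in wild type and 2.70 ± 0.20 in the IDR deletion strain, and the pyruvate carboxylase gene PYC1 by 2.09 ± 0.28 and 2.73 ± 0.29. In starved cells PYC1 was higher in the IDR deletion strain than wild type by 1.53 ± 0.27, and the other gene called, LPD1 of the pyruvate dehydrogenase complex, was lower (-0.79 ± 0.13).

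Of 11 other genes of alcohol, aldehyde and fusel alcohol metabolism, 8 rose and 1 fell in wild type, 8 rose and 2 fell in the IDR deletion strain, and 8 rose and 1 fell in the F450A strain, with medians of 1.25, 1.64 and 1.55. ARO9, the aromatic aminotransferase gene that feeds Aro10, rose by 6.36 ± 0.40, 8.24 ± 0.44 and 8.07 ± 0.44 in the same order, next to the 6.45, 8.29 and 8.38 of ARO10. BAT2, the cytosolic branched-chain aminotransferase gene, rose by 3.43 ± 0.16, 4.83 ± 0.17 and 3.76 ± 0.16. Among 11 regulators, 6 rose and 1 fell in wild type, with CAT8 at 5.23 ± 0.24 and ADR1 at 3.81 ± 0.34, and ARO80 rose by 1.80 ± 0.13. In the IDR deletion strain 6 regulators rose and 1 fell, and in the F450A strain 5 rose and 1 fell, with medians of 0.98, 0.59 and 0.35 from wild type on. ZAP1, the zinc-responsive activator, stood at -0.06 ± 0.25 with starvation in wild type and rose by 0.70 ± 0.23 in the IDR deletion strain. Of 4 zinc uptake genes none rose and 1 fell in wild type and F450A strain, and 1 rose and 1 fell in the IDR deletion strain, and the gene that fell in each strain was the low-affinity transporter gene ZRT2 (-0.87 ± 0.15 in wild type). Of 12 thiamine genes, whose product PDC enzymes need, 3 rose and 1 fell in wild type, 8 rose and 1 fell in the IDR deletion strain and 2 rose and 2 fell in the F450A strain. In starved cells 8 of these 12 were higher in the IDR deletion strain than in wild type and 0 lower (median 1.24), against the 15.9% and 13.3% of all genes, with the thiazole synthesis gene THI4 at 2.59 ± 0.32 and the thiamine transporter gene THI7 at 1.80 ± 0.19. PHO3, which encodes a thiamine-repressed acid phosphatase, fell with starvation in wild type (-1.43 ± 0.15). THI5, THI11, THI12 and THI13 are near-identical copies, so their counts are not independent.

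Over the 19 libraries with enough depth, the genes whose log2 CPM was most like that of ADH1 were TDH2 (Pearson r = 0.974), HSC82 (0.968) and HEM15 (0.966). For ADH2 they were DAK1 (0.935), PIC2 (0.916) and CAP2 (0.909), and for PDC1 TAF8 (0.858), RPP0 (0.846) and YLR285C-A (0.834). For ARO10 they were GID11, ADY2 and CAT2, each at 0.996. These values are descriptions over libraries that share condition, fraction and depth.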

How the data were processed

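The deposited values are raw read counts per gene, made by the authors with featureCounts 2.0.1 per the file headers (gene features, reverse-stranded, multi-mapping reads allowed as fractions). All 6600 values per file are whole, so how shared reads of ADH1 and ADH2 or of PDC1 and PDC5 were split cannot be told. The submitters' processing notes name cutadapt and TopHat2, without versions in what was used here. The library is strand-specific poly(A) RNA.

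Groups came from the labels. Counts were fitted with edgeR 4.0.16 (R 4.3.3), with TMM scaling, filterByExpr (minimum count 10) and a threshold of 0.05, in 3 fits, namely whole cells (5853 genes), nuclear extracts (6086 genes) and starved cells (5944 genes). Libraries under 100000 counts were left out, a limit set with the depths known. DESeq2 1.42.0, RLE scaling, no filter, all libraries, only the groups compared, a replicate block and leaving out each library were alternatives, and the code was tested on simulated data. Sequences were aligned with MAFFT 7.526.

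Members and lists were chosen with earlier results of these data known. All 10 members are named, as are up to 4 genes of each list with small adjusted p and, for likeness, the 3 highest correlations. ARO10 was added to the likeness search after its values were seen. The motifs were also chosen with the values known. A looser Zap1 motif (ACCT, 5 bases of any kind, GT, in 8.08% of windows, with 1 match, in ADH3) was searched first, and the stricter spelling was added after its matches were seen.

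Correlations of replicate differences between groups were -0.611 to 0.388 in whole cells, so whether the numbers pair these libraries is not known. They were 0.201, 0.35 and 0.506 in nuclear extracts, where every pair was over 0.1. The main fits used no replicate block, and the ratio tests between fractions were run only without it.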

Additional observations from a re-analysis of the deposited data

Results flagged for a closer look

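The starvation response differed between IDR deletion strain and wild type, by an interaction term in edgeR, in 4 of the 10 genes, against 11.7% of all genes. The difference on the log2 scale was 1.84 for ARO10, 0.81 for ADH4 and 4.03 for ADH7, and -0.79 for ADH1. With only the groups compared ADH1, ADH4 and ADH7 were not called. The ADH7 value was 2.84 without unstressed wild type replicate 1, where the level stood at 15.5 RPKM against 4.32 in replicate 2. With 1 library left out, ADH1, ADH4 and ADH7 lost the call in 6 of 8 fits and ARO10 in 5 of 8. In each fit that lost a call, the share of all genes called was also lower than in the main fit.

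The nuclear against whole cell difference was lower in the IDR deletion strain than in wild type by an interaction term for PDC6 (-3.81) and ARO10 (-2.45), against 1.4% of all genes. Both calls were lost in 7 of 9 fits with 1 library left out. In each of these 7 the share of all genes called was also lower than in the main fit. In starved whole cells the IDR deletion strain differed from wild type by 4.01 (PDC6) and 2.85 (ARO10), and in nuclear extracts by 0.26 and 0.44. Nuclear libraries labelled IDR deletion strain scored 0.517, 0.429 and 1.11 on genes that part the mutants in whole cells, and the part of this in the result was not tested.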

How the results depend on the processing

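Of 48 called values over 18 comparisons, 22 kept their call under every alternative run and 26 lost it with at least 1 library left out. No called value changed sign. Counts of called members moved as follows. The share of all genes called is in brackets, except for fits with 1 library left out. With only the groups compared they were 3 (43.4%) for starvation in wild type, 0 (0%) for unstressed IDR deletion strain against wild type, 3 (11.3%) for unstressed IDR deletion against F450A strain, 10 (62.8%) for starved IDR deletion strain against wild type, 1 (4.28%) for the starvation by IDR deletion strain interaction and 2 (13.2%) for nuclear against whole cell in the F450A strain. DESeq2 gave 4 (23.1%) for unstressed IDR deletion strain against wild type, 1 (2.05%) for unstressed IDR deletion against F450A strain, 2 (3.84%) for starved F450A strain against wild type and 1 (2.67%) for the starvation by F450A strain interaction. With 1 library left out, counts ranged from 3 to 9 for starvation in wild type (9 without unstressed replicate 2, where 77.2% of all genes were called), 3 to 5 in the F450A strain, 5 to 6 in the IDR deletion strain and 4 to 5 for starved IDR deletion strain against wild type. They ranged from 0 to 6 for unstressed IDR deletion strain against wild type, 0 to 5 for unstressed F450A strain against wild type, 0 to 2 for starved F450A strain against wild type, and 0 to 6 for both starvation interactions. The highest of these for the unstressed comparisons and the interactions also came without unstressed wild type replicate 2, with 54.4% to 64.6% of all genes called. For nuclear against whole cell they were 2 to 3 in wild type, 0 to 3 in the IDR deletion strain and 2 to 6 in the F450A strain, and 0 to 2 for the fraction by IDR deletion strain interaction. The PDC6 to PDC1 starvation ratio ranged from 1.45 to 1.78. With 1 library left out the share of all genes called moved as well. It was lower than in the main fit in every such fit for starvation in both mutants. The same held for starved IDR deletion strain against wild type. For starvation in wild type it was lower without either starved library and higher without either unstressed one. Whether members lost calls beyond the loss over all genes was not tested. The cause of the moves in these counts and ratios was not tested.

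With the replicate block, counts were 1 (1.42%) for unstressed IDR deletion strain against wild type and 4 (25.6%) for the fraction by IDR deletion strain interaction, and the block changed the calls of 10 member values in all. As exact sign flips over the pairs the ADH2 to ADH1 starvation ratio was 1.52 and the PDC5 to PDC1 ratio 1.31. Both had an adjusted p of 0.0625. Every pair moved upward in both ratios, so each exact p was the smallest that sign flips of these pairs allow. A larger rise could not have lowered it. Scaling by plain totals moved 34 of 90 group levels by more than the SD between libraries.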
